A study of Mus musculus with 3 samples.

Results

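Interferon-stimulated genes of the Isg15 and Ifit type were followed across the cell types of mouse dorsal skin in 3 single-cell libraries, from YAP/TAZ knockout, old and young control skin. The genes were Isg15, Ifit1, Ifit2, Ifit3, Ifitm3, Ifi27, Ifi27l2a, Oasl2, Irf9 and Bst2, chosen by symbol, and all 10 were found among the 31053 genes listed. Of 9 cell types that could be compared, Isg15 reached the minimum level for a call in 8 and Ifit1 in 4. Isg15 was higher in knockout than in young control skin in 6 types, and Ifit1 in 4. Over the 9 types 3.9% of all genes tested were called higher. In sebocytes and dermal papilla cells Isg15 reached the minimum level for a call only through the knockout library. Ifit1 did so in all its types but vascular endothelial cells, so these counts of types are a description and no support. The increases were found in vascular and lymphatic endothelial cells, sebocytes, T and NK cells, fibroblasts and dermal papilla cells, and none was found in keratinocytes, Schwann cells or pericytes taken as whole types. In keratinocytes both genes stayed under the minimum, so neither could be called there. In dermal papilla cells Isg15 was no longer higher once an estimate of free RNA was subtracted. The sebocyte calls were lost when cells were set at the young control's mix of clusters. In old skin the genes split. Isg15 was higher than in young control skin in T and NK cells, fibroblasts and pericytes, whereas Ifi27l2a was lower in 5 cell types and Irf9 in 2, against 2.57% of all genes called higher and 2.61% lower.

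The knockout library came from 2.5-month-old mice carrying R26-CAG-CreER with floxed Yap1 and floxed Wwtr1 (the gene for TAZ). CreER, here under the broadly active CAG promoter, is a recombinase that tamoxifen switches on. The old control library came from 24-month-old wild-type mice without treatment. The young control library came from 2.5-month-old mice with floxed Yap1 and Wwtr1 but no CreER. Tamoxifen was given by gavage to knockout and young control mice alike, at 0.11 mg per g on 2 days of each of 4 weeks. Old and young control skin thus differed in age, in the floxed alleles and in tamoxifen, and these cannot be told apart. Each group was 1 library. No difference below has a replicate check, no p-value is given, and all intervals are 95% intervals that cover counting error only.

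Type I interferons bind the receptor pair IFNAR1 and IFNAR2 on nearly all nucleated cells. The kinases JAK1 and TYK2 then act on signal transducers that join IRF9 in the complex ISGF3. This complex binds interferon-stimulated response elements in the promoters of antiviral genes and turns them on. In skin such genes are known from the response to viruses, to wounds and to nucleic acids released by damaged cells. Irf9 encodes the DNA-binding part of that complex. Isg15 encodes a ubiquitin-like protein that is attached to other proteins, and Ifit1, Ifit2 and Ifit3 encode proteins that bind viral RNA or one another. Oasl2 belongs to the oligoadenylate synthetase family, Bst2 encodes tetherin, which holds budding virus at the cell surface, and Ifitm3 encodes a membrane protein that hinders viral entry. Ifi27 and Ifi27l2a encode small hydrophobic proteins.

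The core of the response element was read as GAAA, any 2 bases and GAAA, on either strand, in RefSeq promoter windows of build GRCm38.p6, which run from 250 bases before to 50 bases after a start of transcription. Windows were found for 8 of the 10 genes, all but Ifi27 and Ifi27l2a, and 5 of these genes held a match: Isg15 3, Ifit1 2, Ifit3 2, Bst2 2 and Ifitm3 2. Of all 32851 windows, 3.44% held a match and 0.225% held at least 2. No match lay in the windows of Ifit2, Oasl2 or Irf9. The 170 bases before the start are shown for 4 of the genes because they carry their matches, in capitals, at differing distances and on differing strands, each written along its own gene's strand. The 3 matches in Isg15 overlap one another, as do the 2 in Bst2.
Isg15, chr4:156200819-156200988, minus strand: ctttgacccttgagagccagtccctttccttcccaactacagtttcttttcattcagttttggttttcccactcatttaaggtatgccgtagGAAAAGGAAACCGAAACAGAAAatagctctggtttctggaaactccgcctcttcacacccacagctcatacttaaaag
Ifit1, chr19:34640719-34640888, plus strand: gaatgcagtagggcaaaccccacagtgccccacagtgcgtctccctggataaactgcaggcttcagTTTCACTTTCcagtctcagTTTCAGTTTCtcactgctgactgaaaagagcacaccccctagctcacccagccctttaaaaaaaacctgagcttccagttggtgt
Ifit3, chr19:34583359-34583528, plus strand: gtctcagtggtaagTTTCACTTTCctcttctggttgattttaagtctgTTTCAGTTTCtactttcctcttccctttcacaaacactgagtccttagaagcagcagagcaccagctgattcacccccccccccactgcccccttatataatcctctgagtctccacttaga
Bst2, chr8:71537473-71537642, minus strand: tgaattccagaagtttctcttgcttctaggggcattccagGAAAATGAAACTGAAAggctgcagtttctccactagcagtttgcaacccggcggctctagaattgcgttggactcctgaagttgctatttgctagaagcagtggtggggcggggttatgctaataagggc
In Ifitm3 both matches lay after the start, and the first of them is shown with its neighbouring bases.
Ifitm3, chr7:141010723-141010752, minus strand: caaaattcagGAAAAGGAAActtctgagaa

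In the annotation used for the counts' build (GRCm38), Ifit2, Ifit3 and Ifit1 lie side by side on chromosome 19, between 34550694 and 34650009, and Ifi27 and Ifi27l2a lie side by side on chromosome 12, between 103434211 and 103443680. Isg15 lies on chromosome 4 (156199424 to 156200818), Oasl2 on chromosome 5 (114896936 to 114912234), Ifitm3 on chromosome 7 (141009586 to 141010770), Bst2 on chromosome 8 (71534255 to 71537456) and Irf9 on chromosome 14 (55603571 to 55610030). Irf9 overlaps Rnf31 on the same strand. Near-identical genes exist for Ifit1 and Ifit3 (Ifit1bl1, Ifit3b), for Ifitm3 (Ifitm1, Ifitm2) and for Ifi27l2a (Ifi27l2b). The values of these 4 genes are uncertain to the extent that reads could be split or shared in counting.

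After filtering, 8655 knockout, 11108 old control and 10784 young control cells were kept, with medians of 2083, 1783 and 4957 UMIs (unique molecular identifiers, one per captured transcript) per cell. Mitochondrial RNA made up a median of 10.3%, 7.19% and 5.01% of UMIs in these libraries. Of 30547 kept cells, 130 pairs shared a barcode between libraries. The targeted Wwtr1 had 0.767 CPM (a gene's UMIs scaled to one common total) in knockout keratinocytes, 106 CPM in old control and 114 CPM in young control keratinocytes, and 25.9, 121 and 125 CPM in fibroblasts of the same libraries. Yap1 had 20.3, 75.7 and 109 CPM in keratinocytes and 52.6, 52.1 and 58.6 CPM in fibroblasts. The sources used here do not say whether the deleted exons include the counted 3' ends, so Yap1 in fibroblasts neither bears out nor contradicts the label. The knockout library had the Y-linked Ddx3y at 115 CPM and Xist at 0.208 CPM, while Ddx3y was at 0 in both other libraries and Xist at 1381 CPM in old control and 1686 CPM in young control, so sex and group cannot be told apart. Cells received a type from fixed markers. No type could be given to 57.4% of knockout, 42.7% of old control and 2.27% of young control cells, mostly because markers of other types stood too high in their cluster or no type led clearly.

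Levels below are CPM of all UMIs summed over the cells of a type in a library. A call of higher or lower needed a mean of 20 CPM or more over the 3 libraries, a ratio to young control of 2 or more (0.5 or less for lower), and an interval whose nearer end lay beyond 1.5-fold. There were 9 types with at least 50 cells in each library. Of the 90 pairs of a gene and a type, 65 reached the 20 CPM. In knockout skin 16 of these pairs (24.6%) were higher and 1 (1.54%) was lower, against 3.9% higher and 4.67% lower over all genes in the same types. The mean includes the knockout library. Isg15 and Ifi27l2a in sebocytes and dermal papilla cells reached 20 CPM only through it, as did Ifit1 in types named below. The share of higher pairs in knockout skin is thus a description and no support. In old skin 4 pairs (6.15%) were higher and 9 (13.8%) lower, against 2.57% and 2.61% over all genes.

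**Figure D1:**
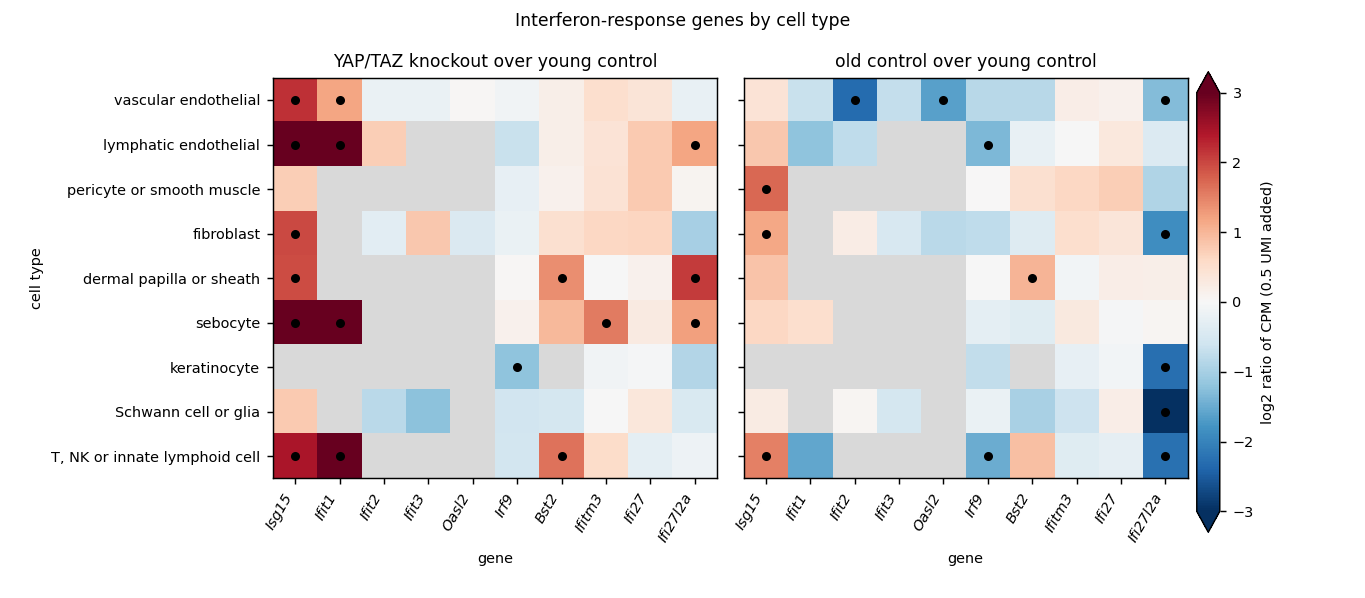
Ratio of each gene's CPM to young control skin (log2 scale) in 9 cell types, knockout in the left panel and old control in the right; marked cells passed the rule of size. In the knockout panel the Isg15 column was higher in 6 types, and in the old control panel the Ifi27l2a column was lower in 5.

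Irf9, the transducer among the 10 genes, was not higher in any type. In keratinocytes it had 23.4 CPM in knockout, 32.5 CPM in old control and 54.3 CPM in young control skin. The knockout ratio of 0.431 (interval 0.328 to 0.556) was the only lower call for any of the 10 genes in knockout skin. Of the 140 knockout keratinocytes, 66 lay in cluster 26, with 17.8 CPM of Irf9 against 45.4 CPM in young control cells. A further 52 lay in cluster 11, with 34.4 CPM against 44.4 CPM. In old skin Irf9 was lower in lymphatic endothelial cells, at 33.2 CPM against 84.9 CPM in young control (ratio 0.392, 0.283 to 0.531). It was also lower in old T and NK cells, at 14.4 CPM against 41.7 CPM in young control (ratio 0.347, 0.203 to 0.560). Knockout lymphatic endothelial cells had 52.7 CPM and knockout T and NK cells 27.1 CPM, values that lay below young control but did not pass the rule. Vascular endothelial cells had 76.8 CPM in knockout, 46.9 CPM in old control and 83.5 CPM in young control skin.

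Isg15 was called in the most types, and its knockout level was highest in the endothelium. In vascular endothelial cells it had 418 CPM in knockout (361.7 to 481), 121 CPM in old control and 91.9 CPM in young control skin, from 98, 327 and 631 cells. The knockout ratio was 4.55 (3.75 to 5.52) and the old ratio 1.32 (1.06 to 1.64). In lymphatic endothelial cells it had 704.5 CPM in knockout, 69.9 CPM in old control and 39.7 CPM in young control skin, from 56, 533 and 539 cells. Its knockout ratio of 17.8 (14.5 to 21.8) rested on 334 UMIs in 30 of the 56 cells, of which 76 came from 1 cell. The old ratio of 1.76 (1.35 to 2.29) did not pass the rule.

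Outside the endothelium, Isg15 in sebocytes had 115 CPM in knockout, 6.5 CPM in old control and 4.2 CPM in young control skin, a knockout ratio of 27.4 (16.4 to 49.4). Nearly all knockout sebocytes lay in clusters that no other library filled: cluster 13 held 904 knockout cells against 1 old control and 2 young control cells, and cluster 33 held 219 against none. Such a cluster may mark the library and not a type. The 13 knockout cells that shared the sebocyte cluster of the other libraries had 15.7 CPM of Isg15 from 2 UMIs. In T and NK cells Isg15 had 112 CPM in knockout, 57.8 CPM in old control and 20.4 CPM in young control skin, higher in both comparisons with ratios of 5.47 (3.58 to 8.21) and 2.83 (2.03 to 3.95). With a stricter barcode filter, which left 9 knockout T and NK cells, the knockout ratio was 1.45.

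Fibroblasts carried the same order. Isg15 had 58.9 CPM in knockout, 33.4 CPM in old control and 14.9 CPM in young control fibroblasts, higher in both comparisons with ratios of 3.95 (3.0 to 5.15) and 2.24 (1.70 to 2.92). Of the 75 UMIs in knockout fibroblasts, 30 came from 1 cell. Dermal papilla or sheath cells had 44.1 CPM in knockout, 20.2 CPM in old control and 11.2 CPM in young control skin, with a knockout ratio of 3.95 (2.81 to 5.66). This class is weakly marked: only 4 of its 7 markers passed 20 CPM in knockout and 5 in both controls, and 849 of the 863 knockout cells came from cluster 15, which held 1 cell of each other library. With free RNA subtracted the ratio was 0, and at the young control's mix of clusters it was 3.50 and no longer passed the rule.

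Pericytes and smooth muscle cells differed in that old skin passed and knockout skin did not. Isg15 had 51.1 CPM in knockout, 99.3 CPM in old control and 30.5 CPM in young control cells, an old ratio of 3.26 (2.01 to 5.16) from 28 UMIs in 66 cells and a knockout ratio of 1.68 (1.21 to 2.33). In keratinocytes the 3 libraries lay close together, with 10.0 CPM in knockout, 9.2 CPM in old control and 10.1 CPM in young control skin, under the 20 CPM minimum, with ratios of 0.984 (0.633 to 1.47) and 0.904 (0.734 to 1.11). Schwann cells or glia had 35.8, 22.4 and 20.6 CPM in the same order of libraries, with a knockout ratio of 1.74 (1.15 to 2.65).

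**Figure D2:**
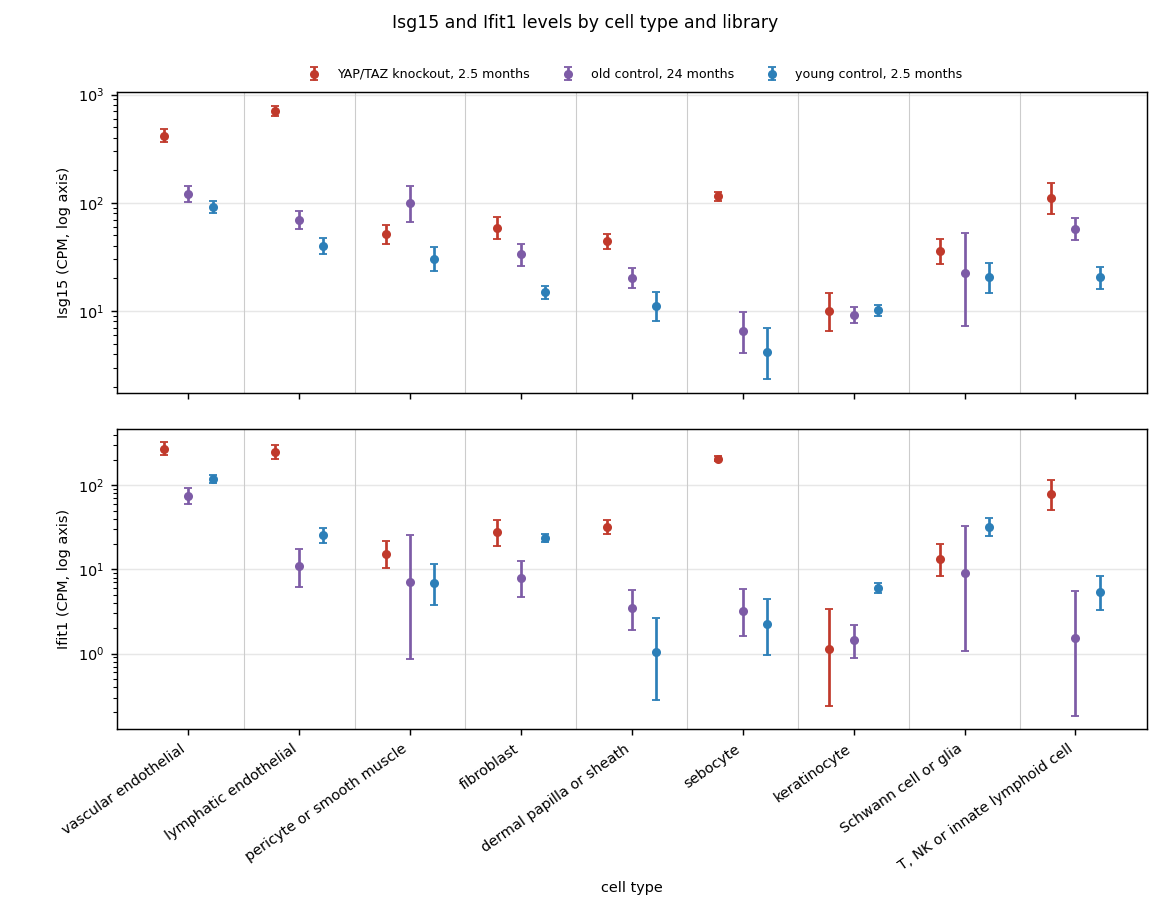
CPM of Isg15 and Ifit1 (log scale) in each cell type and library, with 95% counting intervals. Knockout Isg15 stood highest in lymphatic (704.5 CPM) and vascular (418 CPM) endothelial cells, and the 3 keratinocyte points lay together between 9.2 and 10.1 CPM.

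Ifit1 was called higher in knockout skin in 4 types. In sebocytes, in T and NK cells and in lymphatic endothelial cells its mean reached 20 CPM only through the knockout library. The number of types is thus a description and no support. Vascular endothelial cells had 271 CPM in knockout, 75.4 CPM in old control and 120 CPM in young control skin (knockout ratio 2.26, 1.82 to 2.78). Lymphatic endothelial cells had 249, 10.9 and 25.5 CPM (knockout ratio 9.77, 7.35 to 13.02). The 118 knockout UMIs there came from 17 of 56 cells, with 49 from 1 cell. In both endothelia the old value was the lowest of the 3, with ratios of 0.628 and 0.426 that did not pass the rule. Inside vascular cluster 16, however, Ifit1 had 210 CPM in knockout, 216 CPM in old control and 128 CPM in young control cells. Sebocytes had 207 CPM in knockout, 3.2 CPM in old control and 2.2 CPM in young control skin, a ratio of 92.3 (46.6 to 214) that rested on 8 young control UMIs and on the clusters held by the knockout library. None of the 13 knockout cells in the shared sebocyte cluster held an Ifit1 UMI. T and NK cells had 78.4, 1.5 and 5.4 CPM, and the 26 knockout UMIs came from 6 cells.

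In the other types the mean of Ifit1 over libraries stayed under 20 CPM, and its values in knockout skin lay on both sides of young control. Dermal papilla cells had 32.2 CPM in knockout, 3.4 CPM in old control and 1.0 CPM in young control skin. Schwann cells had 13.3, 9.0 and 32.1 CPM, and keratinocytes 1.2, 1.4 and 6.0 CPM. Fibroblasts had 27.5 CPM in knockout, 8.0 CPM in old control and 23.5 CPM in young control skin.

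Ifit2 and Ifit3, the partners of Ifit1 on chromosome 19, were not called higher in any of the 4 and 3 types in which they reached the minimum. Knockout sebocytes, under it, had 15.3 CPM of Ifit2 against 1.5 CPM in old control and 0.56 CPM in young control cells, and 24.8, 3.5 and 0.28 CPM of Ifit3. Ifit2 was lower in old vascular endothelial cells, at 14.7 CPM against 74.7 CPM in young control (ratio 0.197, 0.110 to 0.328), while knockout cells had 64.0 CPM. In lymphatic endothelial cells Ifit2 had 54.8 CPM in knockout, 19.7 CPM in old control and 33.6 CPM in young control skin. Ifit3 had 44.7, 18.3 and 25.8 CPM in fibroblasts, where 30 of the 57 knockout UMIs came from 1 cell, and 36.3, 25.7 and 42.7 CPM in vascular endothelial cells. In vascular endothelial cells the knockout ratios were 2.26 for Ifit1, 0.857 for Ifit2 and 0.850 for Ifit3, and in lymphatic cells 9.77, 1.63 and 1.37.

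Oasl2 reached 20 CPM in 2 types. Vascular endothelial cells had 55.5 CPM in knockout, 17.5 CPM in old control and 55.3 CPM in young control skin, lower in old skin with a ratio of 0.316 (0.185 to 0.512), a call lost in 3 of the 10 alternatives run for it. Fibroblasts had 19.6, 15.1 and 26.998 CPM. In keratinocytes, under the minimum, it had 2.3 CPM in knockout, 4.0 CPM in old control and 19.7 CPM in young control skin.

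Bst2, the tetherin gene, was higher in knockout T and NK cells and in dermal papilla cells of both libraries. T and NK cells had 299 CPM in knockout, 180 CPM in old control and 96.9 CPM in young control skin, with a knockout ratio of 3.08 (2.44 to 3.86). At the young control's mix of clusters this ratio was 1.90, and inside clusters 7 and 27 it was 1.80 and 2.01, none of which passed the rule. Dermal papilla cells had 78.9, 60.7 and 29.9 CPM, with ratios of 2.64 (2.12 to 3.31) in knockout and 2.03 (1.63 to 2.55) in old skin. The old call was lost in 5 of the 10 alternatives run for it and the knockout call in 2. In keratinocytes the order was turned round, with 6.9 CPM in knockout, 12.1 CPM in old control and 25.5 CPM in young control skin, under the minimum. Vascular endothelial Bst2 had 448, 221 and 396 CPM, and neither ratio passed the rule.

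Ifitm3 was called in 1 type only. Sebocytes had 724 CPM in knockout, 304 CPM in old control and 247.5 CPM in young control skin (knockout ratio 2.93, 2.71 to 3.16). In barcodes under 1000 UMIs, taken here as a measure of free RNA in the suspension, knockout skin had 1264 CPM of Ifitm3, and with that RNA subtracted the sebocyte ratio was 1.36. At the young control's mix of clusters it was 0.412, from 13 knockout cells. In the endothelium Ifitm3 had 3122 CPM in knockout, 2308 CPM in old control and 2339 CPM in young control lymphatic cells, and 2765, 2239 and 1960 CPM in vascular cells. Fibroblasts had 1402 CPM in knockout, 1311 CPM in old control and 919 CPM in young control skin. These ratios lay between 0.987 and 1.53.

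Ifi27 and Ifi27l2a, neighbours on chromosome 12, did not move together. Ifi27 was called in no type and stayed between 60.3 and 223.6 CPM in all 27 sums of a type and a library. Ifi27l2a was lower in old skin in 5 types. It had 27.5 CPM in old control and 131.5 CPM in young control keratinocytes (ratio 0.209, 0.188 to 0.231), and 37.3 CPM against 179 CPM in T and NK cells (ratio 0.209, 0.153 to 0.279). Fibroblasts had 35.6 CPM in old control and 130 CPM in young control skin (ratio 0.274, 0.216 to 0.343), and vascular endothelial cells 18.4 CPM against 46.1 CPM (ratio 0.399, 0.235 to 0.643). The fibroblast call was lost at the young control's mix of clusters, with a ratio of 0.586. Cluster 18, which held 658 young control and 21 old control cells, had 1702 of the young control UMIs, and 375 CPM against 212 CPM in old control cells. The vascular call was lost in 5 of the 10 alternatives run for it. Old Schwann cells had no UMI in 64 cells, against 281 UMIs and 140.9 CPM in young control. This was 10.47-fold lower when set at a floor of 3 UMIs. The interval of the old value reached up to 16.5 CPM, above that floor. Of the 64 old cells, 56 lay in cluster 21, where young control cells had 52.0 CPM. A further 492 old control cells of Schwann cluster 8, left without a type, had 77.3 CPM, against 238.7 CPM in the 351 young control cells of that cluster.

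In knockout skin Ifi27l2a was higher in 3 types. Lymphatic endothelial cells had 287 CPM in knockout against 127 CPM in young control (ratio 2.26, 1.85 to 2.74). Dermal papilla cells had 55.2 CPM against 12.7 CPM (ratio 4.34, 3.16 to 6.05), and sebocytes 40.9 CPM against 17.4 CPM (ratio 2.36, 1.74 to 3.22). The sebocyte ratio turned to 0.131 with free RNA subtracted and to 0.451 at the young control's mix of clusters. Knockout fibroblasts with 65.1 CPM and knockout keratinocytes with 71.7 CPM lay below young control, at ratios of 0.502 and 0.545 that did not pass the rule.

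**Figure D3:**
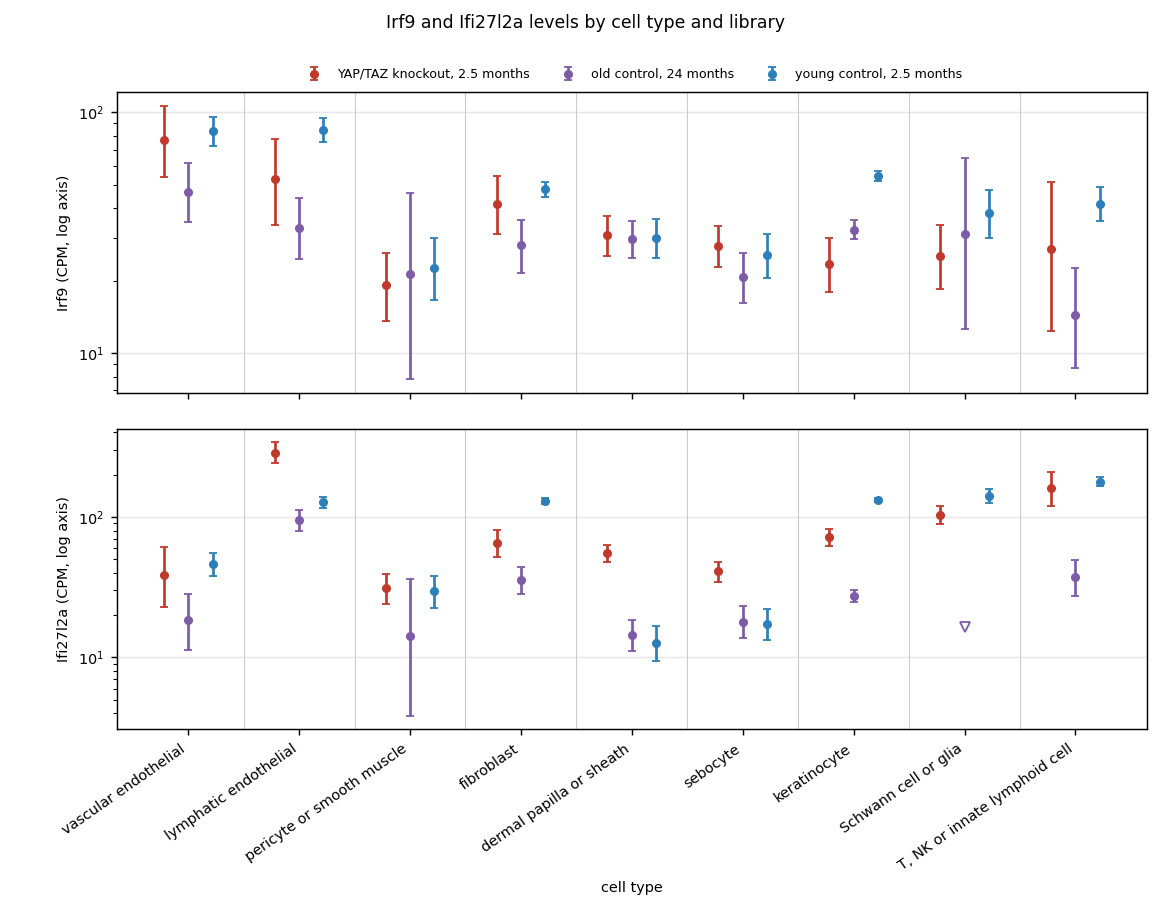
CPM of Irf9 and Ifi27l2a (log scale) in each cell type and library, with 95% counting intervals. Old control Ifi27l2a lay far below young control in keratinocytes (27.5 against 131.5 CPM) and at 0 UMIs in Schwann cells.

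Read by cell type, the calls of higher in knockout skin fell in 6 types. Lymphatic endothelial cells had 3 of 8 tested genes higher (1.45% of all genes there), vascular endothelial cells 2 of 10 (1.65%), and T and NK cells 3 of 7 (2.97%). Sebocytes had 4 of 7 higher, in a comparison where 11.9% of all genes were, dermal papilla cells 3 of 6 (5.28%), and fibroblasts 1 of 9 (5.56%). Keratinocytes had 1 of 4 lower (5.22%). Over all 10 genes the median log2 ratio was 0.64 in knockout lymphatic endothelial cells and -0.78 in knockout keratinocytes, against -0.08 and -0.13 over all genes tested there.

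In old skin vascular endothelial cells had 3 of 10 genes lower and none higher (4.98% of all genes there were lower), with a median log2 ratio of -0.77 over the 10 genes against -0.10 over all. T and NK cells had 2 of 7 lower and 1 higher (4.22% and 3.24%), and fibroblasts 1 of 9 in each direction (1.98% lower, 1.62% higher). Keratinocytes (0.768% of all genes lower), lymphatic endothelial cells (2.84%) and Schwann cells (3.68%) each had 1 gene lower. Pericytes (1.08% of all genes higher) and dermal papilla cells (2.82%) each had 1 higher, and no gene was called in old sebocytes.

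Cells of some types sat in different clusters in different libraries, so ratios were also taken inside single clusters with at least 10 cells in every library. This was added after the data were seen. Isg15 was called higher in 7 of the 10 tested clusters in knockout skin (2.28% of all genes were, and 2.92% were lower) and in 4 of 10 in old skin (1.72%, and 1.92% lower), and its ratio was over 1 in 16 of 17 and 14 of 17 clusters. In vascular cluster 16, which held 83, 101 and 565 cells of knockout, old control and young control skin, Isg15 had 432, 284 and 101 CPM. The old ratio there was 2.83 (2.16 to 3.66), above the 1.32 of the whole type. Of old vascular cells, 220 of 327 lay in cluster 30, where Isg15 had 337 CPM in knockout, 66.1 CPM in old control and 21.3 CPM in young control skin, whereas 565 of 631 young control cells lay in cluster 16.

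Pericytes gave a further case. In cluster 22 Isg15 had 142 CPM in knockout, 157 CPM in old control and 41.2 CPM in young control skin, higher in both with ratios of 3.45 (2.37 to 5.03) and 3.82 (2.32 to 6.15). Most knockout pericytes, 526 of 609, lay in cluster 20, where the values were 26.2, 0 and 7.87 CPM. In fibroblast cluster 1, with 74 knockout, 291 old control and 1555 young control cells, 5 of the genes were higher in knockout cells. The share of all genes higher was 2.28% over all single clusters together and 5.56% in whole fibroblasts. It was not taken for single clusters, so this count is a description. Isg15 had 102 CPM in knockout, 36.4 CPM in old control and 12.3 CPM in young control cells of cluster 1 (knockout ratio 8.25). Of its 50 knockout UMIs, 30 came from 1 cell. Bst2 and Ifi27 had knockout ratios of 4.01 and 2.16, and 28 of the 102 knockout Bst2 UMIs came from 1 cell. The knockout ratios of Ifit1 and Ifit3 were 3.096 and 4.08. Here too, 17 of the 23 Ifit1 UMIs and 30 of the 35 Ifit3 UMIs came from 1 cell each. The cluster that ran against the rest was keratinocyte cluster 26, where Isg15 had 7.29 CPM in knockout, 6.64 CPM in old control and 21.01 CPM in young control skin. Irf9, Bst2 and Ifi27l2a were lower in its knockout cells, with ratios of 0.392, 0.118 and 0.248. Over all single clusters together 2.92% of all genes were lower, and 5.22% in whole keratinocytes.

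**Figure D4:**
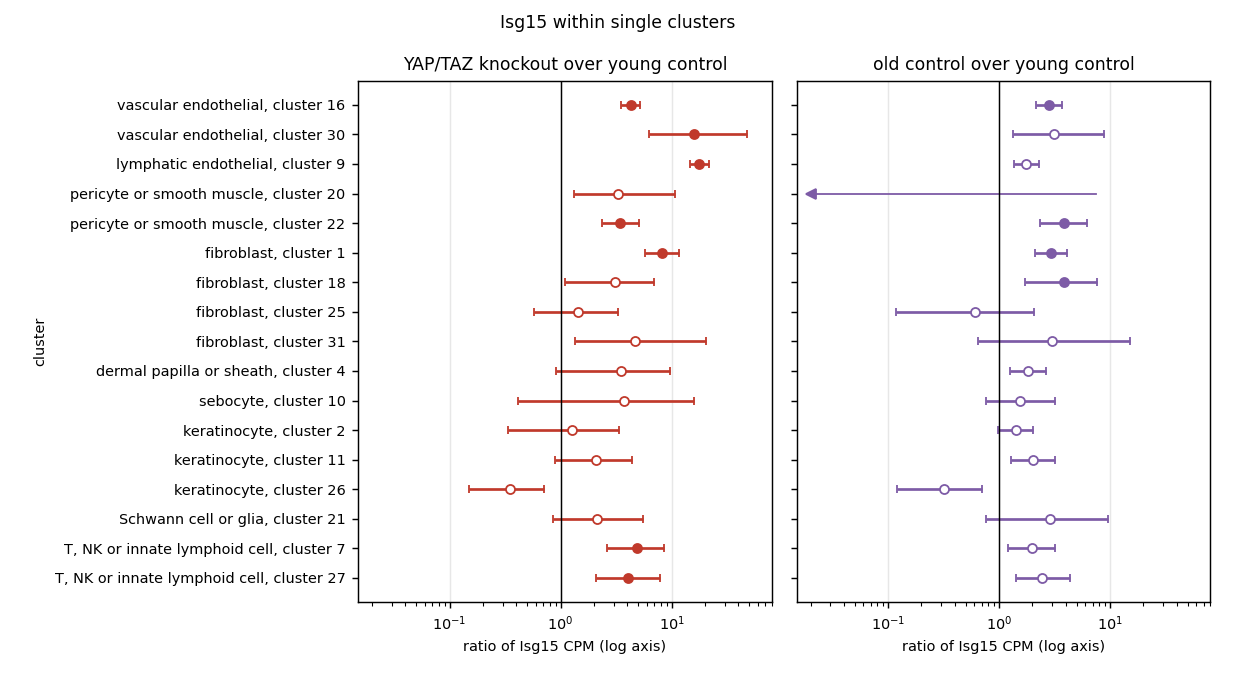
Ratio of Isg15 CPM to young control skin (log scale) in the 17 clusters with at least 10 cells of every library, with 95% counting intervals. Clusters are grouped by cell type, with knockout in the left panel and old control in the right. Filled points passed the rule of size. In vascular cluster 16 both ratios lay on the higher side, from 432 CPM in knockout and 284 CPM in old control against 101 CPM in young control.

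Isg15 was seen in a minority of cells in the types below once depth was made equal. Ifitm3, at full depth, was seen in 97 of 98 knockout vascular cells. Each cell was thinned to 1500 UMIs, and shallower cells were left out. Isg15 was then seen in 36.2% of knockout, 13.95% of old control and 10.6% of young control vascular cells (94, 258 and 530 cells), against 56.1%, 22.02% and 23.8% unthinned. Lymphatic cells gave 33.3%, 8.01% and 5.56%, and T and NK cells 13.3%, 7.04% and 2.82%. Keratinocytes, where the 3 CPM values lay together, gave 4.20%, 1.60% and 1.36%. Unthinned median depths were 4151 UMIs in knockout, 2993 in old control and 8140 in young control keratinocytes, and 3796.5, 2601 and 3097 in vascular cells.

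At least 2 of Isg15, Ifit1, Ifit2 and Ifit3 were seen in the same thinned cell in 22.9% of knockout lymphatic endothelial cells (12.03% to 37.3%), 0.962% of old control and 1.65% of young control ones. Vascular cells gave 18.1%, 3.88% and 8.49%. In sebocytes the shares were 8.48%, 0% and 0%, where the intervals reached up to 0.633% in old control and 2.06% in young control cells. These limits are on thinned cells with UMIs of at least 2 of the genes, not on cells expressing them. The tenth of lymphatic cells with the most UMIs of these 4 genes held 62.6% of them in knockout, 78.4% in old control and 66.5% in young control skin. These UMIs numbered 481 in 48 knockout, 139 in 312 old control and 367 in 486 young control cells. Sparse UMIs raise such a share, so it does not compare how concentrated expression was between libraries.

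In 4 types the knockout library had too few cells for calls. Knockout dendritic or Langerhans cells, 26 in all, had 301 CPM of Isg15 against 10.0 CPM in 367 old control and 13.5 CPM in 677 young control cells. Their Ifi27l2a was 1560 CPM, against 98.4 and 365 CPM. Knockout macrophages or monocytes, 43 cells, had 178 CPM of Isg15 and 322 CPM of Ifit1, against 8.6 and 8.6 CPM in 27 old control cells and 13.1 and 14.5 CPM in 185 young control cells. Melanocytes had 17.5, 22.2 and 13.9 CPM of Isg15 in knockout, old control and young control skin. The fourth type, mast cells, had 7 cells in the knockout library.

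**Figure D5:**
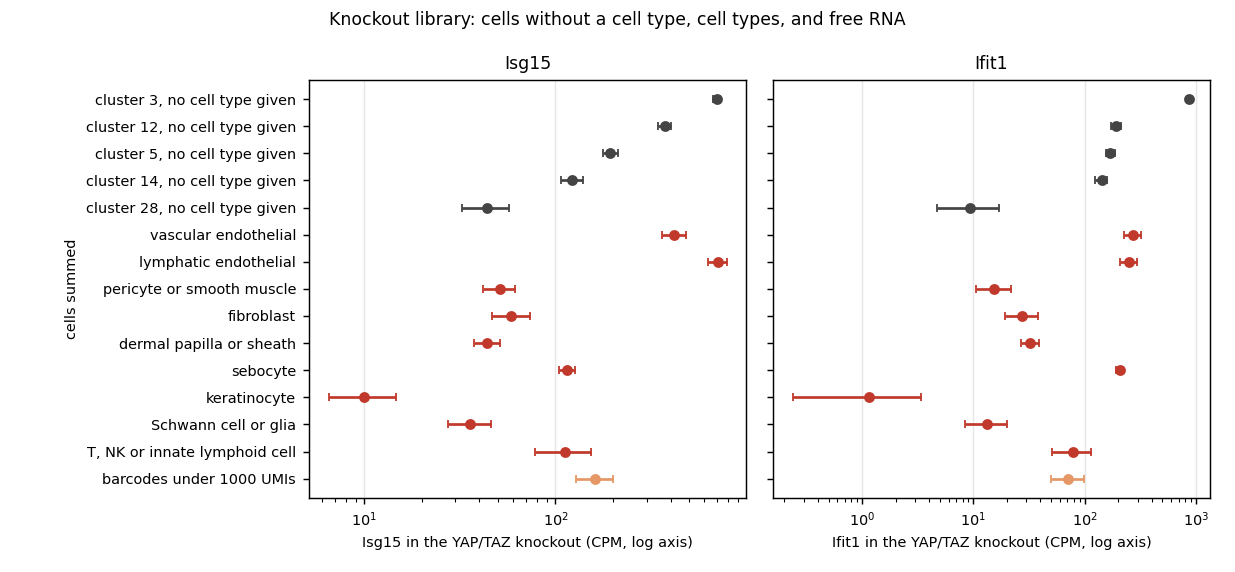
CPM of Isg15 and Ifit1 (log scale) in knockout cell types, in knockout clusters left without a cell type and in barcodes under 1000 UMIs, with 95% counting intervals. Cluster 3, without a type, had 696.1 CPM of Isg15, near the 704.5 CPM of lymphatic endothelial cells.

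Free RNA, as read from barcodes under 1000 UMIs, was not equal between libraries. These barcodes numbered 527 in knockout, 7834 in old control and 1828 in young control skin, with medians of 988, 825 and 781.5 UMIs. They may include shallow cells, above all in knockout skin, so how far the subtraction below removes free RNA is uncertain. In barcodes under 1000 UMIs Isg15 had 161 CPM in knockout, 31.8 CPM in old control and 12.5 CPM in young control skin. Markers of other cell types stood at 0.342 of their free-RNA level in knockout sebocytes, 0.285 in old control and 0.048 in young control sebocytes. Over all 9 types this ranged from 0.0284 to 0.342 in knockout, from 0.0945 to 0.390 in old control and from 0.048 to 0.375 in young control skin. With free RNA subtracted in these proportions, Isg15 had 451 CPM in knockout, 168 CPM in old control and 110 CPM in young control vascular cells, and 753.8, 80.7 and 43.5 CPM in lymphatic cells. Knockout sebocytes kept 73.3 CPM of Isg15 and 257 CPM of Ifit1. In knockout dermal papilla cells nothing was left of the 44.1 CPM of Isg15, and in pericytes 6.7 CPM was left.

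Across the 27 sums of a type and a library, each gene was set against the mean of the other 9 on the log2(CPM + 10) scale. The correlation was highest for Ifit1 (0.83) and lowest for Ifi27l2a (0.27), as a description over sums that share libraries and depth. The closest single pair was Isg15 and Ifit1, at 0.83. Among 6934 other genes, those closest to the mean of the 10 were Acvrl1 (0.89), Jcad (0.88), Tm4sf1 (0.87), Sh3glb1 (0.87) and Gbp5 (0.86). Acvrl1 encodes a receptor of endothelial cells and Gbp5 an interferon-induced guanylate-binding protein. Acvrl1 had 179 CPM in knockout, 115 CPM in old control and 107 CPM in young control vascular cells, and 3.83, 5.88 and 5.76 CPM in keratinocytes.

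The rest of the pathway was read from lists chosen with earlier results of these data known. Of 52 other interferon response genes, 51 were in the files. Over the 9 types they gave 163 tested pairs, of which 12 (7.36%) were higher and 6 (3.68%) lower in knockout skin, against 3.9% and 4.67% of all genes. In old skin 5 (3.07%) were higher and 25 (15.3%) lower, against 2.57% and 2.61%. Vascular endothelial cells had 0 of 36 higher or lower in knockout and 9 of 36 lower in old skin. Knockout sebocytes had 5 of 7 higher. Cxcl10, a chemokine gene induced by interferons, was higher in knockout Schwann cells, T and NK cells and sebocytes. It was lower in knockout fibroblasts, with 31.4 CPM against 77.8 CPM in young control, and in knockout keratinocytes, with 8.43 CPM against 69.4 CPM.

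Ifitm1, a close relative of Ifitm3, had 91.8 CPM in knockout, 74.4 CPM in old control and 21.5 CPM in young control fibroblasts, higher in both comparisons. Slfn5, another interferon-induced gene, had 132 CPM in knockout, 24.5 CPM in old control and 5.88 CPM in young control sebocytes. Among receptors and transducers 3 of 99 pairs (3.03%) were higher and 3 (3.03%) lower in knockout skin, and 2 (2.02%) higher and 10 (10.1%) lower in old skin. The knockout shares lay under those of all genes. Negative regulators of the pathway had 2 of 54 pairs (3.70%) higher and 5 (9.26%) lower in knockout skin, and 2 (3.70%) higher and 3 (5.56%) lower in old skin. Samhd1, which degrades deoxynucleotides and limits the sensing of nucleic acids, was lower in 4 types in knockout skin.

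Of the interferons themselves, Ifnb1 was seen in knockout skin with 101 UMIs in 20 of the 8655 cells and with 0 UMIs in both other libraries, where 3 UMIs would have been 0.0739 CPM in old control and 0.0368 CPM in young control skin. It was singled out after its values were seen. Of the 101 UMIs, 72 came from 4 dendritic or Langerhans cells. Ifng, the type II interferon, had 74 UMIs in knockout, 518 in old control and 497 in young control skin, and T and NK cells held 60, 290 and 455 of them.

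Genes known to respond to cell dissociation were read beside these. Of 144 tested pairs of such a gene and a type, 17 (11.8%) were higher and 14 (9.72%) lower in knockout skin, against 3.9% and 4.67% of all genes. In old skin 4 (2.78%) were higher and 1 (0.694%) lower, against 2.57% and 2.61%. Hspa1a and Hspa1b, heat-shock genes, were higher in 6 knockout types. Among these were vascular cells, where Hspa1a had 817 CPM in knockout against 125 CPM in young control, and lymphatic cells, where it had 378 CPM against 51.6 CPM. Other genes of the list went the other way: Egr1 was lower in 6 knockout types, and Nr4a1 was lower in 2 and higher in 1. The part of dissociation, sex and free RNA in the values of the 10 genes was not tested beyond the subtraction above.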

How the data were processed

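As deposited, each library is a matrix of unnormalized UMI counts (genes by barcodes) written by Cell Ranger 3.1.0 per the file headers. Build mm10 and Seurat 3.1.5 come from the submitters' processing notes, and the aligner settings and the way barcodes were chosen before deposit are not stated. A barcode passed with 500 genes and 1000 UMIs or more, and a mitochondrial share of 15% or less. Scrublet's automatic doublet threshold marked 0% of knockout and 0.00828% of old control barcodes and had not worked there, so the 8% with the highest score were removed from every library. Cells were clustered together on 2000 variable genes, without the 10 genes and the pathway lists, using 30 components, 20 neighbours and Leiden resolution 1 (scanpy 1.11.5, leidenalg 0.10.2). Of 39 clusters, 33 were named from fixed markers. Cluster parts in which markers of other types reached 0.5 of their level in barcodes under 1000 UMIs lost their name. The naming thresholds were chosen with the cluster tables in view.

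UMIs were summed per cell type and library. Levels have exact Poisson intervals and ratios exact binomial intervals at 95% (scipy 1.17.1), and a count of 0 was set at 3 UMIs for bounds. No test was possible with 1 library per group, and the rule of size was tested on simulated data. The 10 genes and all lists were chosen with earlier results of these data known. Genes outside the 10 were named by rule: up to 5 per pathway list, those called in most cell types, and the 5 whose log2(CPM + 10) followed the mean of the 10 most closely. Ifnb1 and Ifng were named after their values were seen. Scaling factors for the alternatives came from edgeR 4.0.16. Sequences are from RefSeq promoter tables (GRCm38.p6), and gene places from GENCODE on GRCm38.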

Additional observations from a re-analysis of the deposited data

Results flagged for a closer look

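Some knockout cells had no cell type and stood outside every comparison. They held more of some of these transcripts than any young control cell type taken whole, with intervals that cleared the highest young control value. The largest such group, cluster 3, held 1509 knockout cells against 6 old control and 2 young control cells. Its leading genes by fold were Ifit1, Selp, Csf3, Cxcl10, Sele and Isg15, although Ifit1, Isg15 and Cxcl10 had been kept out of clustering. Its markers scored highest for vascular endothelial cells, and it lost that name because markers of other types stood at 0.537 of their free-RNA level. It had 696.1 CPM of Isg15, 860.4 CPM of Ifit1, 87.57 CPM of Ifit2, 125.8 CPM of Ifit3, 2446 CPM of Ifitm3 and 162.9 CPM of Ifi27. After thinning to 1500 UMIs, 55.6% of its cells held an Isg15 UMI, and 44.8% held at least 2 of Isg15, Ifit1, Ifit2 and Ifit3. Single young control clusters came closer than whole types. Young control cells of vascular cluster 16 had 82.7 CPM of Ifit2 (71.4 to 95.2), an interval that overlaps that of cluster 3. Those of fibroblast cluster 18 had 183.3 CPM of Ifi27, above cluster 3.

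In clusters 5, 12 and 14 of the knockout library, also without a type, 2 or 3 of the genes stood above every young control type taken whole. In cluster 28, with 291 knockout cells, 0 did. Cluster 12, between vascular and pericyte markers, had 372.4 CPM of Isg15, 191.2 CPM of Ifit1 and 178.4 CPM of Ifi27 in 847 cells. Cluster 5, with pericyte or smooth muscle markers, had 193.9 CPM of Isg15 and 170.2 CPM of Ifit1 in 1273 cells. Cluster 14, with Schwann cell markers, had 122.4 CPM of Isg15, 141.8 CPM of Ifit1 and 177.6 CPM of Ifi27 in 873 cells. Markers of other types stood at 0.675 and 0.683 of their free-RNA level in clusters 5 and 14. Knockout barcodes under 1000 UMIs had 161 CPM of Isg15, 71.1 CPM of Ifit1 and 156 CPM of Ifi27. Isg15 in cluster 14 lay under that level. Its Isg15 and Ifit1 intervals also overlapped those of young control vascular cluster 16, at 101 and 128 CPM. Ifi27 in clusters 12 and 14 lay under young control fibroblast cluster 18. The part of free RNA in these clusters was not tested.

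Among old control cells without a type, 492 cells of Schwann cluster 8 had 195.5 CPM of Ifi27 (167.4 to 227.0), above every young control type taken whole. Young control cells of the same cluster had 161.6 CPM (136.9 to 189.5), an interval that overlaps, and knockout cells 191.7 CPM. Young control fibroblasts of cluster 18 had 183.3 CPM.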

How the results depend on the processing

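In all, 11 alternatives were run, and 229 values stayed close to those given above, 43 moved and 6 changed sides. Of the calls, 4 of 16 higher in knockout (Isg15 in fibroblasts, lymphatic and vascular cells, Ifit1 in lymphatic cells), 0 of 1 lower in knockout, 1 of 4 higher in old (Isg15 in fibroblasts) and 5 of 9 lower in old held in every setting run for them. Knockout higher pairs numbered 10 instead of 16 with only cluster parts low in free RNA (limit 0.25, chosen after seeing the data). Sebocytes, dermal papilla cells and lymphatic endothelial cells, with 4, 3 and 3 of the 16, were not compared in that setting. These counts thus cover different types and do not count lost calls. Knockout lower pairs numbered 2 instead of 1 with TMM factors, 2 with median-of-ratios factors, 4 with no minimum on mean CPM, 0 with cells thinned to 1500 UMIs, 6 with free RNA subtracted and 0 with the young control's cluster mix, which covered 7 types. That mix left out Schwann cells and keratinocytes, and the 1 lower call was in keratinocytes. Old higher pairs numbered 1 instead of 4 with thinned cells. Old lower pairs numbered 14 instead of 9 with no minimum, 5 with the cluster mix and 5 with only parts low in free RNA. Both the mix and the setting low in free RNA left out the types named above. Isg15 in knockout dermal papilla cells had a ratio of 0 with free RNA subtracted. In knockout sebocytes the cluster mix gave ratios of 0 for Ifit1, 0.412 for Ifitm3 and 0.451 for Ifi27l2a, from 13 cells, and subtraction gave 0.131 for Ifi27l2a. Ifi27l2a in old vascular cells had a ratio of 1.06 with only parts low in free RNA. The causes were not tested. Scaling moved the median of all genes by between -0.20 and 0.19 (log2) within a type. Clustering each library alone gave no vascular comparison. No paired analysis was possible because each group has 1 library. Depth limits rare transcripts: 3 UMIs were 0.104 CPM in knockout, 0.0739 CPM in old control and 0.0368 CPM in young control skin.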
